A study of Mus musculus with 42 samples.

Results

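The spleen of the mouse was compared between 9 h and 24 h after an injection of CpG oligodeoxynucleotides, on 8 of the 42 arrays of the series: the 4 of spleens taken at 24 h and the 4 of spleens taken at 9 h. All mice were female, wild-type BALB/c animals, and those of both groups had received 400 µg of an equal molar mix of the CpG oligodeoxynucleotides 1555 and 1466 into the peritoneum. The sources used here do not give their age, the number of mice behind an array or the hour of day of sampling, and the design names the arrays of a time point independent biological replicates. Untreated mice of the same strain and sex (6 arrays), and mice 3 h and 72 h after the same injection (4 arrays each), give the levels before and after. Each array set Cy5-labelled spleen cDNA against Cy3-labelled cDNA of a universal mouse reference RNA pooled from several organs and cell types. A value is the log2 ratio of spleen over reference, averaged over the features of a gene symbol, with the log base and the direction inferred from the values. Of 15277 genes, 15057 had at least 3 values in each group and were tested with limma.

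CpG oligodeoxynucleotides bind Toll-like receptor 9 (TLR9) in the endosomes of B cells, dendritic cells and macrophages. The receptor signals through MyD88 to NF-kB, MAP kinases and interferon regulatory factors, and the genes switched on include cytokines, chemokines, interferon-stimulated genes and the inhibitors that end the signal, such as IkB and SOCS proteins. The red pulp of the mouse spleen holds resident macrophages that take up old red cells and return their iron, and a pool of red cell precursors, while the white pulp holds B and T cells. A spleen sample mixes all of these, so that where a marker of a cell type falls, fewer cells of the type and less RNA per cell cannot be told apart.

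Spleen markers were high at both times: the B cell receptor component Cd79a had a mean log2 ratio of 5.63 ± 0.21 (SD, n = 4) at 9 h and 5.54 ± 0.57 at 24 h, and Spic, the transcription factor of red pulp macrophages, 5.73 ± 0.25 and 5.75 ± 0.33. Features without a value numbered 173 to 1139 of 30601 per array, and precision is limited by having 4 arrays a group. Across the 14381 genes measured on all 8 arrays, correlations between arrays of 1 time ran from 0.827 to 0.925 and those between the times from 0.811 to 0.916, so the arrays do not separate cleanly by time: 9 h replicate 4 correlated at 0.91 with 24 h replicate 4 and at 0.835 with 9 h replicate 2. The median SD of a gene was 0.243 at 9 h and 0.294 at 24 h. By the database numbers in the titles, all 9 h arrays and 24 h replicates 2 to 4 belong to 1 run of numbers, and 24 h replicate 1 stands alone. No untreated array is in a run with a 9 h, 24 h or 72 h array. Differences of these times from the untreated level, given below, therefore cannot be told apart from differences between runs. Genes of the exocrine pancreas, which touches the spleen, differed between arrays by far more than between the times: the mean over 16 acinar genes was 0.18, 6.48, 5.11 and 0.48 on 9 h replicates 1 to 4 and 2.52, 2.99, 4.99 and 0.42 on 24 h replicates 1 to 4. Of the 18 acinar genes tested 0 were called with limma, and 0 had an unadjusted p below 0.05 (median difference -0.32), and the part of this tissue in the results below was not tested.

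Between 9 h and 24 h, 1463 genes changed at an adjusted p below 0.05 (9.72% of those tested), 962 of them upward (6.39%) and 501 downward (3.33%). Among the genes measured on all 8 arrays, Cmbl, Slc15a2 and Cd5l held the greatest named rises, and Apol7c, Il1r2 and Bcl2l14 the greatest named falls. Over all genes tested the median difference was 0.02, and 52.9% were positive. Of the 14381 genes with 8 values, 1384 (9.62%) had groups that do not overlap: 843 (5.86%) were higher on every 24 h array than on any 9 h array, and 541 (3.76%) were lower. The count rests on some arrays more than on others: without 24 h replicate 3 it was 492, without 9 h replicate 4 it was 804, without 24 h replicate 2 it was 883, and without 24 h replicate 4 it was 2386. With the spread taken from the 8 arrays alone it was 149.

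**Figure D1:**
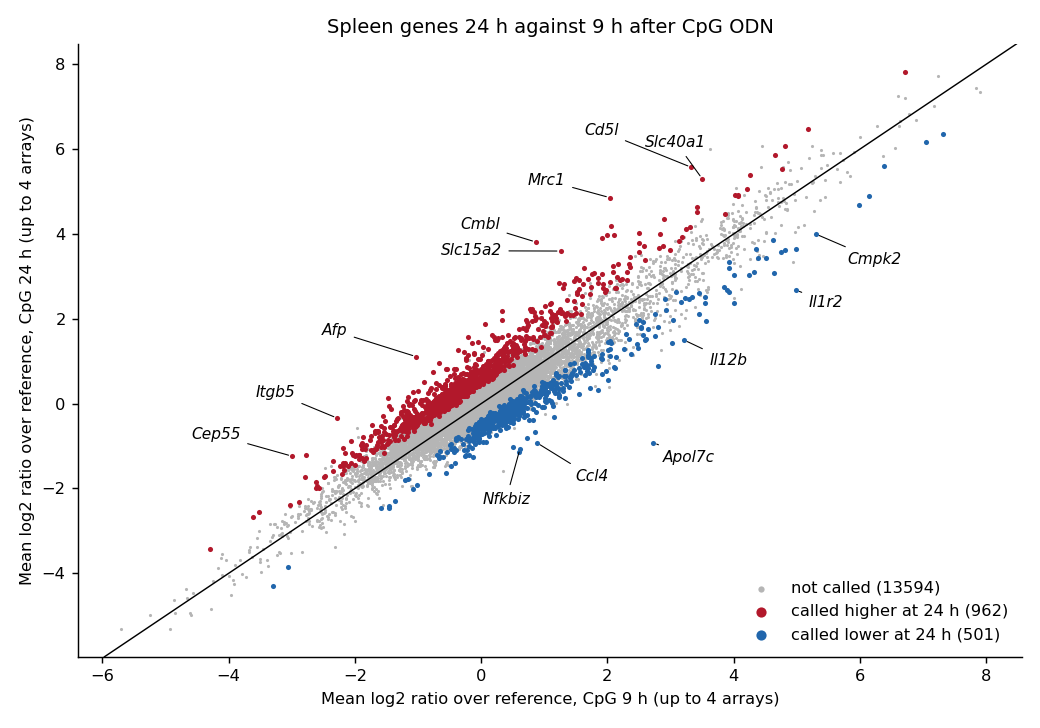
Mean log2 ratio over reference of each of 15057 genes at 9 h (x axis) and 24 h (y axis) after CpG, with 962 genes called higher at 24 h in red, 501 called lower in blue and the line of equality in black. Mrc1, Cmbl, Slc15a2 and Cd5l lie farthest above the line among the labelled genes, and Apol7c farthest below it.

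The 3 h and untreated arrays share no array with this comparison, and they show where the genes that moved had stood before. At 3 h, 1774 of 15253 genes differed from untreated spleen (11.6%), 1174 upward (7.7%) and 600 downward (3.93%). Of all 15044 genes tested in both comparisons, 3.33% fell between 9 h and 24 h and 6.375% rose. Of 1170 genes raised at 3 h and tested in both, 177 (15.1%) fell and 15 (1.28%) rose, with a median difference of -0.18. Of 592 genes lowered at 3 h, 183 (30.9%) rose, 5 (0.845%) fell, and the median was 0.35. The genes raised at 3 h (1170 of 15044) were thus 35.3% of the 501 that fell. The genes lowered at 3 h (592 of 15044) were 19.1% of the 959 risers tested in both. Of the 15044 genes tested in both, 13282 had not been called at 3 h, and of these 2.4% fell and 5.73% rose. These 13282 held 319 of the 501 that fell (63.7%) and 761 of the 959 that rose (79.4%). With 24 h replicate 3 left out the counts were 95 falling and 6 rising of the genes raised at 3 h, and 100 rising and 1 falling of those lowered at 3 h; without 24 h replicate 4 they were 165 and 29, and 241 and 5.

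At 72 h, 2268 of 15161 genes differed from untreated spleen (15%), 1356 upward (8.94%) and 912 downward (6.02%). These arrays too lay outside the comparison, but the spread of each gene was again shared, so these calls are not independent either. Of all 14969 genes tested in both, 6.43% rose between 9 h and 24 h and 3.34% fell. Of the 1347 raised at 72 h and tested in both, 233 (17.3%) rose and 75 (5.57%) fell. Of the 903 lowered at 72 h, 21 (2.33%) rose and 49 (5.43%) fell. Genes raised at 72 h (1347 of 14969) thus made up 24.2% of the 962 that rose and 15% of the 500 that fell. The risers among the genes raised at 72 h numbered 107 without 24 h replicate 3 and 332 without 24 h replicate 4.

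Genes of resident splenic macrophages held several of the greatest rises. Of 21 tested, 6 rose (6.39% of all genes did): Mrc1, Cd5l, Treml4, Slc40a1, Ccl24 and Vcam1, and the median over the 21 was 0.17. Slc40a1 encodes ferroportin, the iron exporter through which macrophages return the iron of red cells. Its log2 ratios were 3.13, 3.17, 3.78 and 3.92 on 9 h replicates 1 to 4 and 5.11, 5.42, 5.58 and 5.11 on 24 h replicates 1 to 4, a difference of 1.80 ± 0.23 (SE of the fit) or 3.48-fold (adjusted p = 2.21e-06). The groups lay more than 1 log2 unit apart. Untreated spleens had 5.24 ± 0.27 (SD, n = 6) and spleens at 3 h 2.58 ± 0.36, so the 24 h level was near the untreated one after a low at 3 h.

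Mrc1, the macrophage mannose receptor, gave 1.95, 1.28, 2.18 and 2.74 at 9 h and 4.62, 5.59 and 4.36 on 24 h replicates 1, 3 and 4, with no value on replicate 2. The difference was 2.82 ± 0.47, or 7.06-fold, with an adjusted p of 0.000173. Untreated spleens had 4.36 ± 0.94 and spleens at 3 h 4.55 ± 0.22, so the low of Mrc1 was at 9 h, while that of Slc40a1 was at 3 h. Cd5l, a secreted protein of tissue macrophages that protects them from cell death, had 3.03, 3.82, 4.25 and 2.21 at 9 h and 5.21, 5.78, 6.07 and 5.24 at 24 h, a rise of 2.25 ± 0.48 (adjusted p = 0.00293). Its mean in untreated spleens (2.60 ± 0.80), unlike that of Slc40a1, and its mean at 3 h (2.33 ± 0.36) were no higher than at 9 h, and it was still high at 72 h (5.33 ± 0.83).

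Treml4, a receptor of splenic myeloid cells that binds dead cells, rose by 1.99 ± 0.35, from 1.81 to 2.33 on the 9 h arrays to 3.71 to 4.27 on the 24 h arrays (adjusted p = 0.000245), against 2.53 ± 0.35 in untreated spleens. Ccl24, an eosinophil attractant made by resident macrophages, rose by 1.41 ± 0.19 (adjusted p = 3.6e-06). Vcam1, the adhesion molecule that macrophages and stroma use to hold blood cells, rose by 1.12 ± 0.25 (adjusted p = 0.00444), although 9 h replicate 4 (3.54) lay above every 24 h array. The rise did not extend to the whole list. Spic differed by 0.02 ± 0.24, the haem-degrading enzyme Hmox1 by -0.12 ± 0.20, the scavenger receptor Marco by 0.15 ± 0.40, Siglec1 of marginal metallophilic macrophages by 0.14 ± 0.33, and C1qb, a chain of the complement protein C1q, by 0.07 ± 0.28, none of them called. With the run of array numbers as a fixed block the list again had 6 calls, and with the 8 arrays alone 5.

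**Figure D2:**
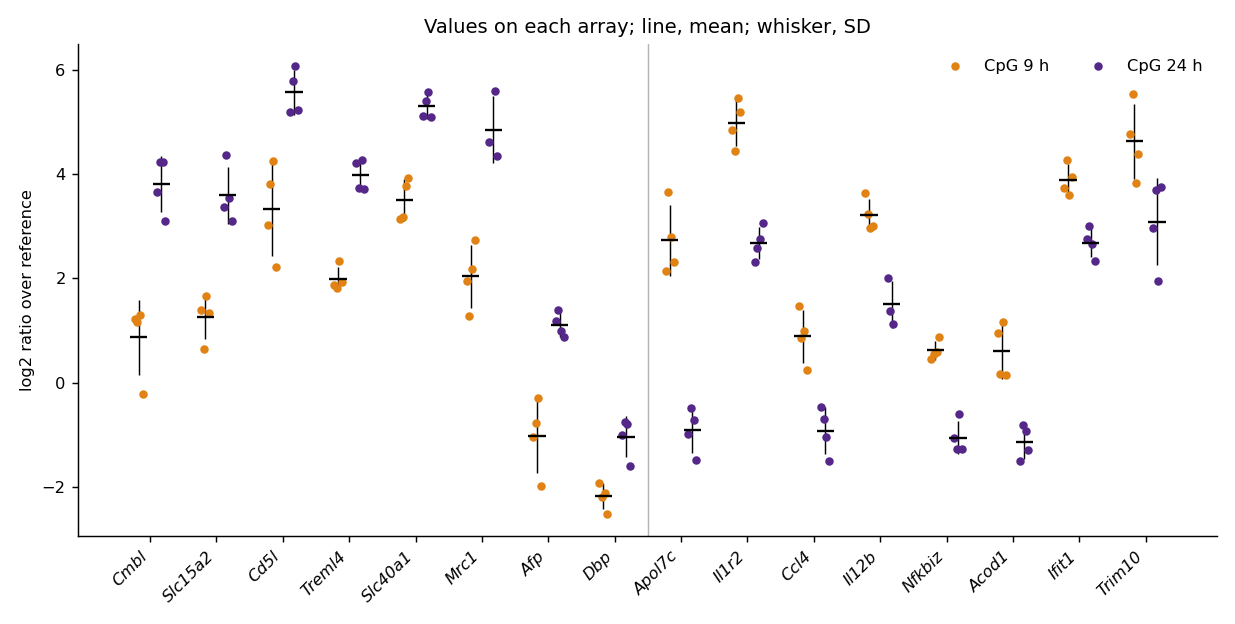
Log2 ratio over reference of 16 genes on each 9 h array (orange) and each 24 h array (purple), with the mean (line) and SD (whisker). The 8 genes on the left rose and the 8 on the right fell, and in none of them do the groups overlap, with Trim10 the closest (3.83 on the lowest 9 h array and 3.77 on the highest 24 h array). All but Mrc1, Dbp, Il12b and Ifit1 were picked from genes required to have no overlap.

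Other genes of the macrophage and monocyte lineage moved both ways. Of 21 tested members of the monocyte and inflammatory macrophage list, 2 rose and 3 fell (background 6.39% and 3.33%), with a median of 0.06. Cd68, a lysosomal protein of macrophages, rose by 1.50 ± 0.22, from -0.41, -0.29, 0.60 and -0.12 to 1.15, 1.90, 1.69 and 1.07 (adjusted p = 1.6e-05). The scavenger receptor Msr1 rose by 0.71 ± 0.17 (adjusted p = 0.0056). Ms4a6d, a membrane protein of activated macrophages, fell by 0.78 from a very high level (5.87 to 6.96 at 9 h, 5.09 to 5.93 at 24 h), and the Fc receptor Fcgr4 and the clotting factor F10 fell by 0.96 and 0.81. The calls of the 3 that fell were lost in 3 to 6 of the 8 fits that left out an array, with the highest adjusted p at 0.175 (Fcgr4, without 24 h replicate 2), 0.143 (Ms4a6d, without 9 h replicate 1) and 0.0825 (F10, without 24 h replicate 2).

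The greatest rise among genes measured on all 8 arrays was that of Cmbl, which encodes carboxymethylenebutenolidase, a hydrolase known for activating prodrugs in liver and gut. Its log2 ratios were 1.23, 1.17, 1.29 and -0.21 at 9 h and 3.67, 4.24, 4.23 and 3.11 at 24 h, a difference of 2.94 ± 0.25, or 7.69-fold (adjusted p = 7.89e-10). Spleens at 3 h had 0.11 ± 0.31 and untreated spleens 2.02 ± 0.21, so the 24 h level stood above both, and at 72 h it was 2.95 ± 0.32. Slc15a2, a peptide transporter that carries bacterial di- and tripeptides into cells, had 1.39, 0.65, 1.67 and 1.33 at 9 h and 3.37, 4.38, 3.54 and 3.11 at 24 h (difference 2.34 ± 0.28, adjusted p = 9.77e-07). It had been near the untreated level (3.07 ± 0.26) at 3 h (2.91 ± 0.33), and was again at 72 h (3.52 ± 0.24).

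Afp, alpha-fetoprotein, the serum protein of the fetal liver, behaved differently. It had -1.05, -0.78, -0.30 and -1.99 at 9 h and 1.19, 1.39, 0.99 and 0.87 at 24 h, a rise of 2.14 ± 0.32 (adjusted p = 2.65e-05), against -1.61 ± 0.56 in untreated spleens, -1.65 ± 0.41 at 3 h and -0.57 ± 0.36 at 72 h. Of these 5 group means the one at 24 h was the highest. Ckb, brain creatine kinase, rose by 2.13 ± 0.30 to 4.19 ± 0.66, above the untreated 2.83 ± 0.35, and Cep55, which acts in the last step of cell division, rose by 1.76 ± 0.21 to -1.24 ± 0.49, above the untreated -2.95 ± 0.22, and was -1.38 ± 0.10 at 72 h.

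Further genes rose at 24 h to a level near that of untreated spleens, or above it. Itgb5, an integrin chain that binds vitronectin, rose by 1.94 ± 0.25 (9 h -2.63 to -2.05, 24 h -0.94 to 0.15, untreated mean -0.83). The multidrug transporter Abcc3 rose by 1.78 ± 0.26 to a mean of 1.58 (untreated 1.59), Gpd1, glycerol-3-phosphate dehydrogenase, by 1.86 ± 0.26 to 2.20 (untreated 1.98), and Lpl, lipoprotein lipase, by 1.37 ± 0.17 to 0.82 (untreated 0.85). Fcgrt, the receptor that spares IgG and albumin from breakdown, rose by 1.83 ± 0.22, from a mean of 0.06 to 1.89, above the untreated 1.26. Npl, a sialic acid lyase, rose by 1.88 ± 0.28 to 3.97, above the untreated 2.94. Kazald1, a secreted protein, rose by 1.65 ± 0.29 to 1.97 (untreated 2.12). The adjusted p of these 7 ran from 6.4e-07 for Fcgrt to 0.000312 for Kazald1.

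**Figure D3:**
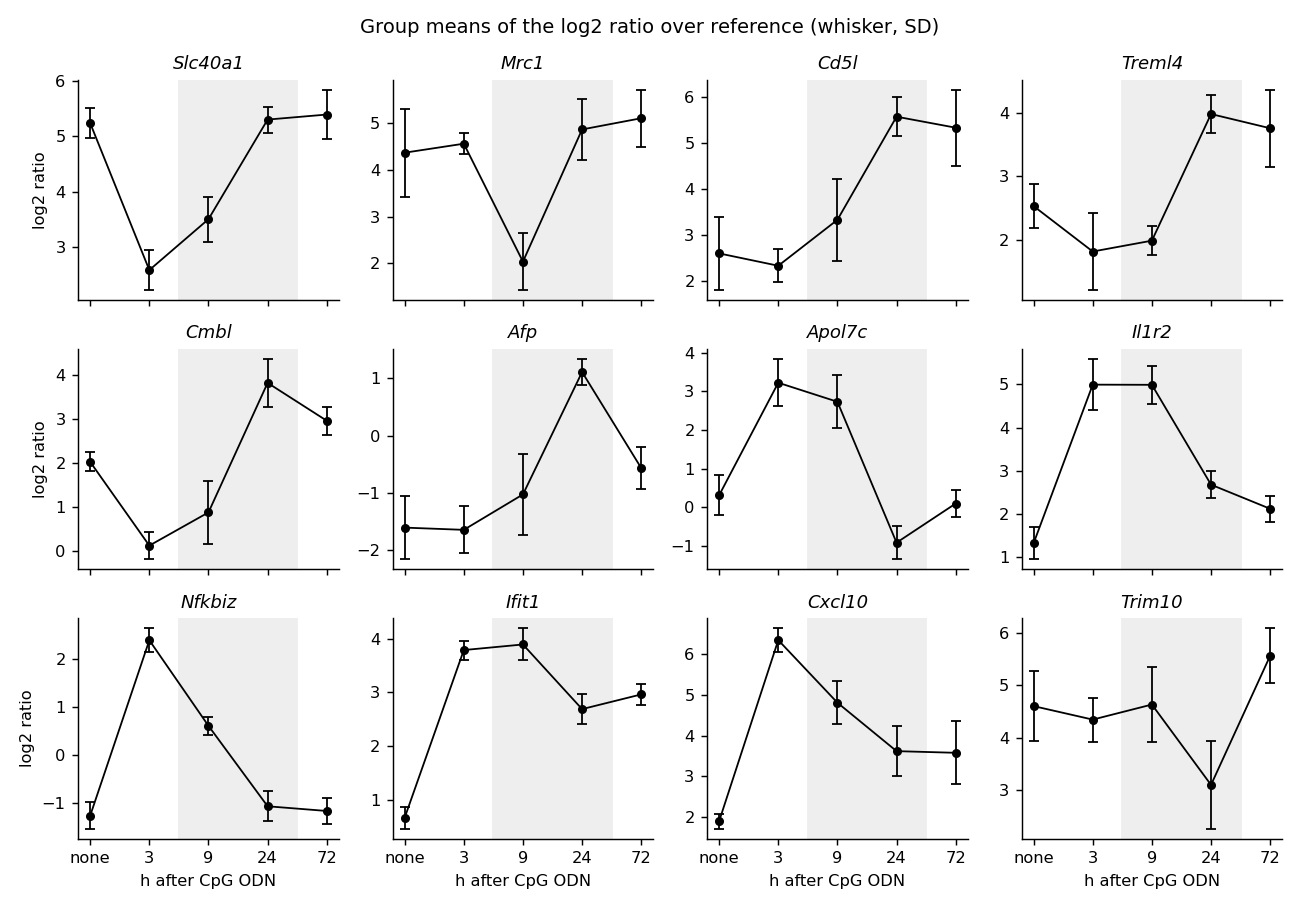
Mean log2 ratio over reference (points) and SD (whiskers) of 12 genes in untreated spleens and 3 h, 9 h, 24 h and 72 h after CpG, with 9 h and 24 h shaded and the time axis not to scale. Slc40a1 and Mrc1 return to near the untreated level at 24 h, Afp peaks there, and Trim10 has its lowest mean there.

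The greatest fall was that of Apol7c, a member of the apolipoprotein L family found in dendritic cells. It had 2.13, 3.67, 2.80 and 2.32 at 9 h and -0.99, -0.48, -0.72 and -1.49 at 24 h, a difference of -3.65 ± 0.39 that left 0.0797 of the 9 h ratio (adjusted p = 9.49e-08). Every 24 h array also lay below the untreated mean (0.31 ± 0.52), after a mean of 3.22 ± 0.61 at 3 h. Its promoter, given by RefSeq on GRCm38.p6 at chr15:77533325-77533399 on the minus strand, bases -84 to -10 from the gene's start, holds 2 overlapping copies of the core of the interferon-stimulated response element, GAAANNGAA or TTCNNTTTC on the other strand. They are in capitals:
Apol7c: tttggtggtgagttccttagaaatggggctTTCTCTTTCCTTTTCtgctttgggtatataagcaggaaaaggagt
This core was found, on either strand, in 7.64% of the 11958 promoters of tested genes, each of 300 bases, in 13.2% of those of genes that fell and in 8.06% of those of genes that rose. A match describes the letters of the window and not a bound site.

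Il1r2, the decoy receptor that takes up interleukin 1 without signalling, fell by 2.31 on the log2 scale, from 4.85, 4.45, 5.47 and 5.19 to 2.32, 2.59, 2.76 and 3.06 (SE 0.29, adjusted p = 1.42e-06). It had stood at 4.99 ± 0.59 at 3 h and 1.33 ± 0.37 in untreated spleens, so that it was still above the untreated level at 24 h. Bcl2l14, a member of the Bcl-2 family, fell by 1.92 (SE 0.26) to a mean of 0.88, near the untreated 0.68. Slfn3, a Schlafen protein, fell by 1.60 (SE 0.27) to 1.96, and stayed above the untreated -0.17 ± 0.40. Cst9, a cystatin, fell by 1.55 (SE 0.23). The germline gene Tex19.1 and the enzymes Gch1, which makes the cofactor of nitric oxide synthase, and Fn3k, which frees proteins of sugars, fell by 1.52, 1.54 and 1.44. Of these, Tex19.1 lost its call without any of 4 arrays (highest adjusted p = 0.0881, without 9 h replicate 2) and Fn3k without 24 h replicate 3 (adjusted p = 0.0521) or 9 h replicate 2.

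Of 28 interferon-stimulated genes tested, 12 fell (3.33% of all genes did) and 26 had a negative difference, with a median of -0.56. The mean of the list on 9 h replicates 1 to 4 was 2.96, 3.03, 2.66 and 2.72 and on 24 h replicates 1 to 4 2.38, 2.32, 2.30 and 2.02, so the groups did not overlap. Untreated spleens had 0.65 ± 0.11 (SD, n = 6) and spleens at 3 h 3.01 ± 0.20. The list had 6 calls without 24 h replicate 3 and 3 with the 8 arrays alone.

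Ifit1 binds foreign RNA that lacks a methylated cap. Its log2 ratios were 3.74, 4.28, 3.60 and 3.95 at 9 h and 2.75, 3.01, 2.67 and 2.33 at 24 h, a fall of 1.20 on the log2 scale (SE 0.19, adjusted p = 4.42e-05), against 0.66 ± 0.20 in untreated spleens. The other 3 with the greatest falls were Cmpk2, a mitochondrial nucleotide kinase (-1.30 ± 0.22), Ifit2 (-1.17 ± 0.23) and Ifit3, from the same family as Ifit1. Ifit3 had 4.94, 4.63, 4.64 and 4.81 at 9 h and 4.24, 3.35, 3.32 and 3.44 at 24 h, a difference of -1.17 ± 0.30 (adjusted p = 0.0117), which missed the threshold without 24 h replicate 3 (adjusted p = 0.0584). The 8 further members that fell were Oasl1, Ddx58, Isg15, Mx1, Oas2, Irf9, Bst2 and Rtp4, by 0.52 (Rtp4) to 0.93 (Oasl1). Of 19 list members with a promoter in the RefSeq table, 12 (63.2%) held the core GAAANNGAA or TTCNNTTTC, against the 7.64% of all promoters. The stretches of Ifit1 (GRCm38.p6 chr19:34640750-34640843, plus strand, bases -139 to -46) and Ifit3 (chr19:34583344-34583465, plus strand, bases -185 to -64) each hold 3 copies, shown in capitals, where 2 of Ifit1 overlap:
Ifit1: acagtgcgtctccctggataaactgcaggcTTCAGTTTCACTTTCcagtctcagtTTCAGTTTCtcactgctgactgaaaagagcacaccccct
Ifit3: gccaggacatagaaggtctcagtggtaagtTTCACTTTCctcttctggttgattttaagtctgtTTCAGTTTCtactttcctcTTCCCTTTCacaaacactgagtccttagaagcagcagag

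Of 22 genes of the interferon gamma response, GTPases and antigen processing genes, 4 fell (background 3.33%), with a median of -0.25. They were Irf1, the transcription factor of this response (-1.24 ± 0.32), Socs1, an inhibitor of interferon signalling (-0.92 ± 0.20), the guanylate-binding protein Gbp5 (-0.78 ± 0.23) and Cd274, the checkpoint ligand PD-L1 (-0.72 ± 0.22). Socs1 had 2.35, 1.91, 2.21 and 1.72 at 9 h and 1.24, 1.22, 1.29 and 0.76 at 24 h, and kept its call whichever array was left out. The calls of Irf1, Gbp5 and Cd274 were lost in 2, 5 and 6 of 8 such fits (highest adjusted p = 0.0781 without 24 h replicate 2, 0.0784 without 24 h replicate 2 and 0.0815 without 24 h replicate 1). Ifng itself differed by -0.27 ± 0.21 and was not called.

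Of 23 chemokine genes tested, 7 fell (background 3.33%), Ccl24 rose and 15 were not called, and the median was -0.39. Ccl4, which draws T cells and macrophages, had 1.46, 0.85, 0.99 and 0.24 at 9 h and -0.47, -0.69, -1.04 and -1.50 at 24 h, a fall of 1.81 on the log2 scale (SE 0.23, adjusted p = 1.6e-06), down from 2.89 ± 0.26 at 3 h and to near the untreated -1.49 ± 0.16. Ccl12, a monocyte attractant, fell by 1.64 (SE 0.34, adjusted p = 0.00185) from 4.67, 4.82, 4.45 and 2.08 to 2.97, 1.99, 2.45 and 2.04, so 9 h replicate 4 lay with the 24 h arrays. Cxcl1, Ccl7, Cxcl2 and Ccl3, attractants of neutrophils and monocytes, fell by 0.86 (Ccl3) to 1.02 (Cxcl1). Falling chemokines numbered 4 without 24 h replicate 3.

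Cxcl10, the interferon-induced attractant of CXCR3-bearing T and NK cells, had 5.28, 4.78, 5.10 and 4.08 at 9 h and 3.73, 3.95, 4.06 and 2.72 at 24 h. The groups did not overlap, although 9 h replicate 4 and 24 h replicate 3 lay 0.02 apart, and the fall was 1.19 on the log2 scale (SE 0.32, adjusted p = 0.0169). The call was lost without 9 h replicate 1 (adjusted p = 0.0636) or 24 h replicate 4. Its relative Cxcl9 differed by -0.92 ± 0.39 (adjusted p = 0.128), not called. The promoter of Cxcl10 (GRCm38.p6 chr5:92348954-92349132, minus strand, bases -243 to -65) is shown because it holds both the interferon core and the kappaB letters searched for here, GGGANTTCC, in capitals in that order:
Cxcl10: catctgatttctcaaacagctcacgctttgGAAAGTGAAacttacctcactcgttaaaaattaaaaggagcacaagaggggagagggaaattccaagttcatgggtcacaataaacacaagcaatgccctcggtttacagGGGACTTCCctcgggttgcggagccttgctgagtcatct
Only this form of the kappaB motif was searched for, on either strand, and other forms were not marked or counted. The kappaB letters were found in 2.07% of all promoters and in 5 of 16 NF-kB list members with a promoter (31.2%). They were in 2.25% of the promoters of genes that fell and 1.66% of those of genes that rose, near the share of all.

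NF-kB targets and feedback genes held 4 falls (background 3.33%) and 1 rise, that of Vcam1, among 20 tested, with a median of -0.35. Nfkbiz encodes an IkB protein of the nucleus that helps switch on late inflammatory genes. It had 0.45, 0.55, 0.59 and 0.88 at 9 h and -1.07, -1.28, -0.61 and -1.28 at 24 h, a fall of 1.68 on the log2 scale (SE 0.17, adjusted p = 1.96e-08), from 2.40 ± 0.25 at 3 h to near the untreated -1.25 ± 0.27. Nfkbia, the IkB protein that holds NF-kB in the cytoplasm, fell by 1.18 (SE 0.21) to -0.04 ± 0.24, below the untreated 0.61 ± 0.43, and Gadd45b and Tnfaip3 fell by 0.98 and 0.87. Without 24 h replicate 3 the list again had 4 falls, and with the 8 arrays alone 2.

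Among 22 inflammatory cytokine genes, 4 fell (background 3.33%) and Tgfb1 rose, and the median was -0.20. Il12b, the p40 chain shared by interleukins 12 and 23, had 3.64, 3.24, 2.97 and 3.01 at 9 h and 2.01, 1.37 and 1.12 on 24 h replicates 1 to 3, with no value on replicate 4. It fell by 1.71 on the log2 scale (SE 0.21, adjusted p = 3.86e-06), after 4.06 ± 0.29 at 3 h and still above the untreated 0.40 ± 0.22. Il1rn, the antagonist of the interleukin 1 receptor, fell by 0.63 (SE 0.14, adjusted p = 0.00497), Tnf by 0.82 (SE 0.24, adjusted p = 0.0235) and Tnfsf10, the death ligand TRAIL, by 0.61. Tnf lost its call without any of 4 arrays (highest adjusted p = 0.0892, without 24 h replicate 2), and Tgfb1, which rose by 0.81 ± 0.23, lost it without 9 h replicate 3 (adjusted p = 0.0963) or 24 h replicate 2.

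Cytokine and chemokine genes of the same response that were not called include Il6 (-0.65 ± 0.31), Il10 (-0.57 ± 0.22), Il1b (-0.18 ± 0.38), Il15 (-0.06 ± 0.19), Il18 (0.48 ± 0.23), Ccl2 (-0.81 ± 0.28, adjusted p = 0.0559) and Ccl5 (-0.39 ± 0.25). For Il18 the means were 4.07 ± 0.16 at 9 h and 4.55 ± 0.51 at 24 h, with all 8 arrays above the untreated mean of 2.90. Of the Toll-like receptor pathway, 27 genes were tested and none was called with limma, with 2 higher and 2 lower at an unadjusted p below 0.05 and a median of 0.01. Tlr9 differed by -0.51 ± 0.22 (adjusted p = 0.13), with 1.20, 1.08, 0.94 and 0.46 at 9 h and 0.78, 0.93, -0.23 and 0.15 at 24 h. Irf7, which drives the interferon response downstream of TLR9, was at 3.08 ± 0.41 and 2.96 ± 0.29 (difference -0.12 ± 0.25).

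Immediate early genes and signalling inhibitors also held falls (background 3.33%). Of 22 immediate early genes, 4 fell: Jun, Atf3, Maff and Klf4, by 0.46 (Klf4) to 0.84 (Jun), and of 19 SOCS and DUSP genes 3 did, Dusp1 by 0.98, Socs3 by 0.97 and Socs1 as above. The medians of the lists were -0.25 and -0.14. Dusp1, a MAP kinase phosphatase, had -1.21, -0.67, -0.57 and 1.45 at 9 h and -1.46, -0.77, -0.88 and -1.79 at 24 h, so the groups overlapped and the call rested on 9 h replicate 4, without which the adjusted p was 0.382. Socs3 lost its call without any of 4 arrays (highest adjusted p = 0.0961, without 9 h replicate 2), Jun without 24 h replicate 3 (0.118) and 2 others, Klf4 without 24 h replicate 3 (0.0907) or 9 h replicate 4, and Atf3 without 9 h replicate 1 (0.0528) or 24 h replicate 1.

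Of 25 effector genes of activated macrophages, 7 fell (background 3.33%), Msr1 rose and the median was -0.12. Acod1, which makes the antibacterial metabolite itaconate, had 0.94, 0.16, 1.16 and 0.14 at 9 h and -1.51, -0.82, -0.94 and -1.30 at 24 h, a fall of 1.75 on the log2 scale (SE 0.25, adjusted p = 1.36e-05), back to near the untreated -1.47 ± 0.56. Mmp13, a collagenase, fell by 1.52 (SE 0.21, adjusted p = 7.5e-06), and Lcn2, which withholds iron from bacteria, by 1.60 (SE 0.36, adjusted p = 0.00378) from 2.90, 3.42, 3.32 and 2.44 to 0.95, 2.15, 1.74 and 0.86. Arg2, an arginase of mitochondria, fell by 1.22 (SE 0.32), Hp, haptoglobin, which binds free haemoglobin, by 1.09 (SE 0.25), Saa3, a serum amyloid protein, by 1.00 (SE 0.27) and Sod2, the superoxide dismutase of mitochondria, by 0.74 (SE 0.15). Nos2, the inducible nitric oxide synthase, differed by 0.04 ± 0.25. Arg2 lost its call without 9 h replicate 1 (adjusted p = 0.0599) and Saa3 without 9 h replicate 3 (adjusted p = 0.0782) and 2 others.

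Some of these genes also stand in other lists (background 6.39% rising and 3.33% falling). Among 11 acute phase and Reg genes, 5 fell (Hp, Saa3, Lbp, Orm1 and Saa1) with a median of -0.49, and Lbp and Orm1 lost their calls in 6 and 5 of 8 fits that left out an array (highest adjusted p = 0.143 without 24 h replicate 3 and 0.0866 without 24 h replicate 4). Among 16 genes induced by glucocorticoids, 4 fell (Il1r2, Lcn2, Dusp1 and Mt2), with a median of -0.46 and list means of 0.48 ± 0.50 at 9 h and -0.10 ± 0.22 at 24 h. Among 16 genes of metal and oxidative stress, Mt2 (metallothionein, -0.83 ± 0.27) and Sod2 fell and Prdx1, a peroxidase, rose by 0.66 ± 0.20, with a median of -0.14. Mt2 and Prdx1 lost their calls in 4 and 6 of 8 such fits (highest adjusted p = 0.251 and 0.129, both without 9 h replicate 4). Of 21 neutrophil genes, Il1r2, Lcn2 and Chil3 fell, the last, a chitinase-like protein, by 1.34 (SE 0.35), and the median was -0.40. S100a8, the calprotectin chain that neutrophils hold in bulk, differed by -0.54 ± 0.29 and was not called.

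Of 26 erythroid genes tested, 10 fell (background 3.33%) and 23 had a negative difference, with a median of -0.73. Trim10, a protein of late red cell precursors, had 4.76, 5.54, 3.83 and 4.39 at 9 h and 2.96, 3.69, 1.95 and 3.77 at 24 h, a fall of 1.54 on the log2 scale (SE 0.44, adjusted p = 0.0229). The 24 h mean of 3.09 ± 0.84 was the lowest of the 5 group means, below 4.60 ± 0.67 in untreated spleens and 5.57 ± 0.52 at 72 h. Aqp1, the water channel of red cells, fell by 1.27 (SE 0.32), Slc25a37, which carries iron into mitochondria, by 1.19 (SE 0.31), and Fech, which puts iron into haem, by 1.17 (SE 0.34). Ermap, Nfe2, Slc4a1, Car2, Sptb and Hemgn fell by 0.71 (Hemgn) to 1.10 (Ermap). Hbb-b1, adult beta globin, differed by -0.20 ± 0.43, and Alas2, the first enzyme of haem synthesis in red cells, by -0.26 ± 0.40. Of 13 haem synthesis genes, 3 fell (Slc25a37, Fech and Urod), with a median of -0.35.

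The erythroid calls depend on 24 h replicate 3, the array with the lowest list mean (2.26, against 2.49, 2.94 and 2.62 on 24 h replicates 1, 2 and 4 and 3.28, 3.77, 2.76 and 3.22 on 9 h replicates 1 to 4). Without it none of the 26 was called and no haem synthesis gene was, with the adjusted p of Trim10 at 0.159, Fech 0.188, Urod 0.141, Slc25a37 0.117 and Aqp1 0.0794. Over all genes, falls numbered 146 without 24 h replicate 3, against 501 in the main fit. With the 8 arrays alone no erythroid gene was called either. The median difference of the erythroid list lay between -0.91 and -0.60 under the alternatives that were fitted. Mki67, a marker of dividing cells, differed by -0.98 ± 0.45 (adjusted p = 0.161) between 0.70 ± 0.87 and -0.28 ± 0.47. GATA1 is the main transcription factor of red cells, and its motif AGATAA or TTATCT was found in 8 of 18 erythroid promoters (44.4%), against 7.83% of all. The stretch of Trim10 (GRCm38.p6 chr17:36869381-36869446, plus strand, bases -193 to -128) holds 1 copy, in capitals:
Trim10: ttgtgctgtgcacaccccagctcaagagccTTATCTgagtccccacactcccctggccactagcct

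**Figure D4:**
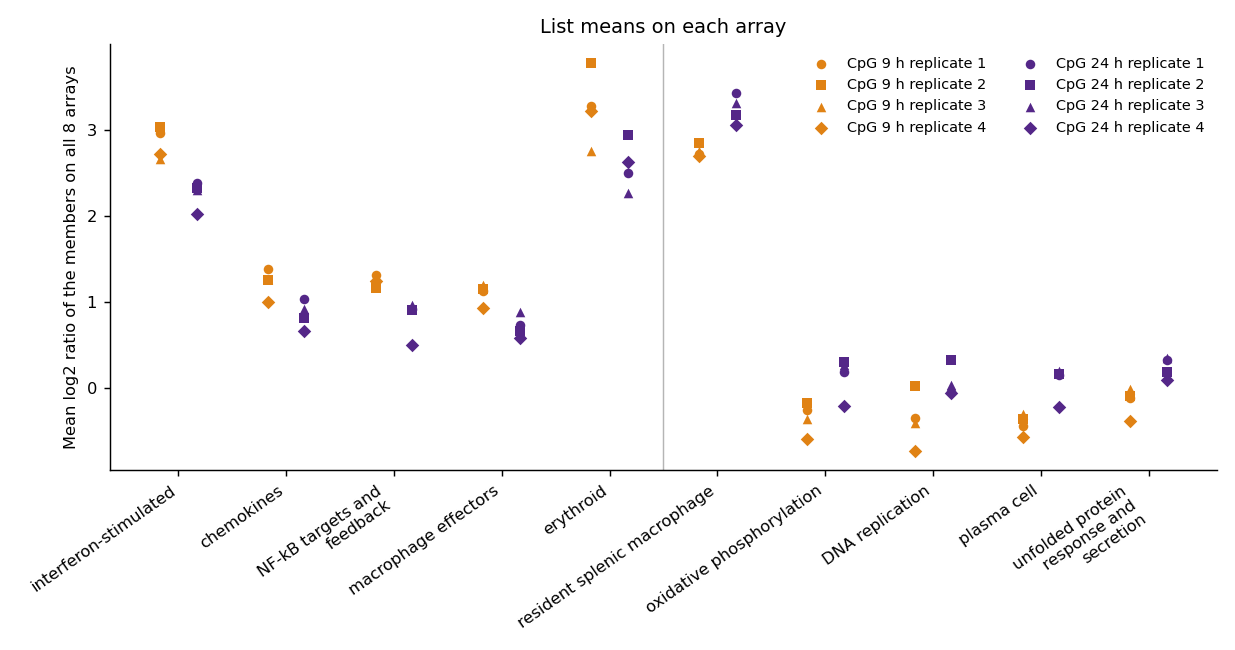
Mean log2 ratio over reference of 10 gene lists on each 9 h array (orange) and each 24 h array (purple), over the members measured on all 8 arrays, with marker shape giving the replicate number. The means of interferon-stimulated, NF-kB and macrophage effector genes lie lower at 24 h, without overlap. Those of resident macrophage, plasma cell, and unfolded protein response and secretion genes lie higher, also without overlap. The chemokine, erythroid, oxidative phosphorylation and DNA replication means overlap.

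Subunits of the mitochondrial respiratory chain and ATP synthase rose by small amounts in large number. Of 66 tested, 30 rose (background 6.39%), 63 had a positive difference, and the median was 0.53. The greatest were Atp5o of ATP synthase (1.00 ± 0.21) and Ndufa7 (0.97 ± 0.17), Ndufb3 (0.89 ± 0.20) and Ndufa2 (0.85 ± 0.18) of complex I. Ndufa7 had -1.01, -0.36, -1.23 and -0.88 at 9 h and 0.07, 0.07, 0.59 and -0.33 at 24 h. The risers came from complex I, complex II (Sdhb, Sdhc, Sdhd), cytochrome oxidase (such as Cox5a, 0.73, and Cox8a, 0.71) and ATP synthase. The list mean was -0.26, -0.18, -0.37 and -0.59 on the 9 h arrays and 0.19, 0.29, 0.26 and -0.21 on the 24 h arrays, so 24 h replicate 4 lay within the 9 h range. Without 24 h replicate 3 there were 12 calls, without 24 h replicate 1 there were 22, and with the 8 arrays alone none was called.

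Other genes of basic cell functions rose in smaller shares (background 6.39%). Of 65 mitochondrial ribosomal protein genes, 10 rose, with a median of 0.28, led by Mrpl42 (1.08 ± 0.19), Mrpl28 (0.74 ± 0.20), Mrpl23 (0.70 ± 0.15) and Mrps21 (0.65 ± 0.16). Of 55 cytosolic ribosomal protein genes, 8 rose, with a median of 0.09, led by Rpl13a (0.73 ± 0.14), Rpl27 (0.70 ± 0.17), Rpl4 (0.64 ± 0.17) and Rpl14 (0.54 ± 0.18), and many such genes have near-identical copies that an array feature may not tell apart. Of 33 proteasome genes, 4 rose, Psmb1 by 0.78 ± 0.17, Psmb2 by 0.62 ± 0.14, Psmb4 by 0.55 ± 0.15 and Psma1 by 0.52 ± 0.16, with a median of 0.23. Without 24 h replicate 3 these lists had 5, 1 and 2 calls, and Mrpl28 (adjusted p = 0.107 without 24 h replicate 2), Mrps21 (0.0531 without 9 h replicate 4), Rpl27 (0.0699 without 24 h replicate 3), Psmb4 (0.119 without 24 h replicate 2) and, without 9 h replicate 4, Rpl4 (0.0888), Rpl14 (0.201) and Psma1 (0.138) each lost their call in at least 1 fit that left out an array. Of 35 ribosome biogenesis genes none was called with limma, with 2 higher and 3 lower at an unadjusted p below 0.05 and a median of 0.09.

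Of 24 genes of the unfolded protein response and secretion, 9 rose (background 6.39%) and Atf4, a transcription factor of this response, fell by 0.50, with a median of 0.44. The protein disulfide isomerase Pdia6 had 0.43, 0.34, 0.97 and -0.39 at 9 h and 1.68, 1.89, 1.83 and 0.93 at 24 h, a rise of 1.25 ± 0.23 (adjusted p = 0.000393), against 0.10 ± 0.25 in untreated spleens. Its groups overlapped slightly, at 9 h replicate 3 and 24 h replicate 4. The chaperone Hsp90b1, which folds Toll-like receptors and immunoglobulins, rose by 1.18 ± 0.20, from -1.20, -0.93, -1.39 and -1.45 to 0.01, -0.21, 0.26 and -0.32 (adjusted p = 0.000128). Pdia3 and Creld2 rose by 0.74 ± 0.17 and 0.80 ± 0.22, while Hspa5, the chaperone BiP, differed by 0.26 ± 0.18 and was not called. Creld2 lost its call without 9 h replicate 4 (adjusted p = 0.109) or 24 h replicate 3.

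Of 13 plasma cell genes, 6 rose (background 6.39%): Mzb1, Eaf2, Creld2, Tnfrsf17, Sec11c and Ssr4, 3 of which are also members of the secretion list, and the median was 0.58. Mzb1, which helps assemble IgM, had -0.14, -0.14, -0.25 and -0.43 at 9 h and 1.01, 1.08, 1.73 and 0.44 at 24 h, a rise of 1.30 ± 0.26 (adjusted p = 0.00118), and Eaf2, an elongation factor of plasma cells, rose by 1.11 ± 0.18 (adjusted p = 7.55e-05). Tnfrsf17, the survival receptor BCMA, rose by 0.70 ± 0.20 and lost its call without any of 4 arrays (highest adjusted p = 0.0759, without 24 h replicate 3). The defining genes Sdc1 (0.06 ± 0.18) and Prdm1 (0.00 ± 0.21) were not called, nor was Irf4 (0.67 ± 0.23, adjusted p = 0.0509). The list had 3 calls without 24 h replicate 3.

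Of 39 DNA replication genes, 11 rose (background 6.39%), with a median of 0.48. They were Prim2 of the primase, Mcm5 of the helicase, Pola1, Pole, Pole2 and Pold1 of the polymerases, Orc2, Gmnn, Rpa2, Gins1 and Rfc1, by 0.54 (Rfc1) to 0.94 (Prim2). Mcm5 had -0.45, 0.47, -0.33 and -0.60 at 9 h and 0.24, 1.19, 0.85 and 0.48 at 24 h, a rise of 0.92 ± 0.25 (adjusted p = 0.0181), and the groups overlapped at 9 h replicate 2. The calls of Prim2, Mcm5, Pole and Pole2 were lost in 3 to 6 of 8 fits that left out an array, with highest adjusted p of 0.186 (without 24 h replicate 3), 0.0842 and 0.129 (both without 24 h replicate 2) and 0.156 (without 9 h replicate 4), and without 24 h replicate 3 the list had 3 calls. None of the 31 mitotic genes was called with limma, with 6 higher and 3 lower at an unadjusted p below 0.05 and a median of 0.13. The mitotic list mean was -0.72 ± 0.31 at 9 h, -0.59 ± 0.20 at 24 h and 0.34 at 72 h.

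Lymphocyte and dendritic cell genes moved in small numbers (background 6.39% rising and 3.33% falling). Of 22 conventional dendritic cell genes, Cadm1 and Naaa rose and Fscn1, Ccr7 and Ly75 fell, with a median of 0.08. Cadm1, an adhesion molecule of cross-presenting dendritic cells, had -0.51, -0.91, 0.09 and 0.25 at 9 h and 1.32, 1.30, 1.39 and 0.85 at 24 h, a rise of 1.49 ± 0.18 (adjusted p = 9.77e-07) to near the untreated 1.55 ± 0.17. Naaa, a lysosomal amidase, rose by 1.01 ± 0.22 (adjusted p = 0.00263). Of the genes that fell, Fscn1, which bundles actin, had 0.30, 0.38, -0.27 and -0.92 at 9 h and -1.26, -1.35, -1.32 and -1.08 at 24 h (difference -1.13 ± 0.20, adjusted p = 0.000428). Ly75 fell by 0.80 and Ccr7, the receptor that leads cells into the T cell zone, by 0.94. Ccr7 is also on the T cell list, and which cells the falls came from was not tested. Ccr7 lost its call in 7 of 8 fits that left out an array (highest adjusted p = 0.153, without 9 h replicate 4). Clec9a (0.29 ± 0.21) and Xcr1 (-0.51 ± 0.25), markers of the same cross-presenting cells, were not called.

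Of 12 plasmacytoid dendritic cell genes, Lair1 rose by 0.85 ± 0.26 and Bst2, also an interferon-stimulated gene, fell by 0.58, with a median of -0.05, and both lost their calls in 5 of 8 fits that left out an array (highest adjusted p = 0.0911 without 9 h replicate 4 and 0.12 without 9 h replicate 2). Of 23 B cell genes, the signalling proteins Btk (0.79 ± 0.21) and Blnk (0.60 ± 0.18) rose (8.7%, near the 6.39% of all genes), with a median of 0.28. Without 24 h replicate 3 neither was called (adjusted p = 0.0874 and 0.134). Of 22 T cell genes, Cd3d (1.11 ± 0.31) and the co-stimulator Icos (0.71 ± 0.24) rose and Ccr7 fell, with a median of 0.11. The share called was 13.6%, against 9.72% of all genes. Cd3e, which forms a pair with Cd3d in the T cell receptor complex, differed by -0.02 ± 0.19, and Cd8a by 0.17 ± 0.24. Cd3d and Icos lost their calls in 4 and 6 of 8 such fits (highest adjusted p = 0.115 without 24 h replicate 3 and 0.163 without 9 h replicate 2).

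Of 20 NK and cytotoxic genes, 2 rose (10%, near the 6.39% of all genes), with a median of 0.30. Gzma, granzyme A, rose by 1.10 ± 0.31 from 7.29, 6.98, 7.10 and 5.52 to 8.07, 8.19, 8.01 and 7.03, and the receptor Cd160 by 1.00 ± 0.33. Both calls were lost in 4 and 6 of 8 fits that left out an array (highest adjusted p = 0.165 and 0.193, both without 9 h replicate 4). Granzyme B, Gzmb, differed by -0.56 ± 0.33, with 5.67, 5.77, 5.70 and 4.35 at 9 h and 4.43, 5.50, 4.84 and 4.47 at 24 h, so the granzymes had estimates of opposite sign of which only that of Gzma was called, and their difference was not tested.

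Of 28 fibroblast and stroma genes, 4 rose (background 6.39%), with a median of 0.20. Tcf21, a transcription factor of the spleen's mesenchyme, had 4.43, 4.00, 3.99 and 4.61 at 9 h and 5.60, 5.80, 5.28 and 4.93 at 24 h, a rise of 1.15 ± 0.26 (adjusted p = 0.00439), from 2.84 ± 0.36 at 3 h to near the untreated 5.47 ± 0.55. The fibre-associated collagen gene Col14a1 rose by 1.36 ± 0.33 (adjusted p = 0.00694), Igfbp5, which binds insulin-like growth factors, by 1.30 ± 0.28 (adjusted p = 0.00317) and the matrix protein Postn by 0.58 ± 0.18. The last lost its call in 5 of 8 fits that left out an array (highest adjusted p = 0.141, without 9 h replicate 2). Col1a1 (-0.02 ± 0.23) and Dcn (-0.13 ± 0.30) were not called. Of 23 endothelial genes, Tek, the angiopoietin receptor, rose by 1.15 ± 0.31, with a median of 0.18, and lost its call without 24 h replicate 3 (adjusted p = 0.0798) and 2 others.

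The remaining lists had at most 1 call (background 6.39% rising and 3.33% falling). Of 16 complement genes, properdin, Cfp, rose by 0.61 ± 0.20, with a median of 0.19, and C1qa differed by -0.21 ± 0.58 with values of 1.60 to 4.53 at 24 h. Of 14 glycolysis genes, Gapdh rose by 0.51 ± 0.15 (median 0.05), of 19 cholesterol synthesis genes Ebp by 0.75 ± 0.17 (median 0.29), and of 12 adipocyte genes Lpl (median 0.04). Cfp and Gapdh lost their calls in 6 and 4 of 8 fits that left out an array (highest adjusted p = 0.222 without 24 h replicate 3 and 0.102 without 24 h replicate 2). No gene was called with limma among 14 of MHC class II presentation (median 0.26; 4 higher at an unadjusted p below 0.05), 15 of megakaryocytes and platelets (median 0.00; 2 lower), 14 of the hypoxia response (median 0.11; 1 higher and 1 lower) and 17 of heat shock (median 0.13; 2 higher).

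**Figure D5:**
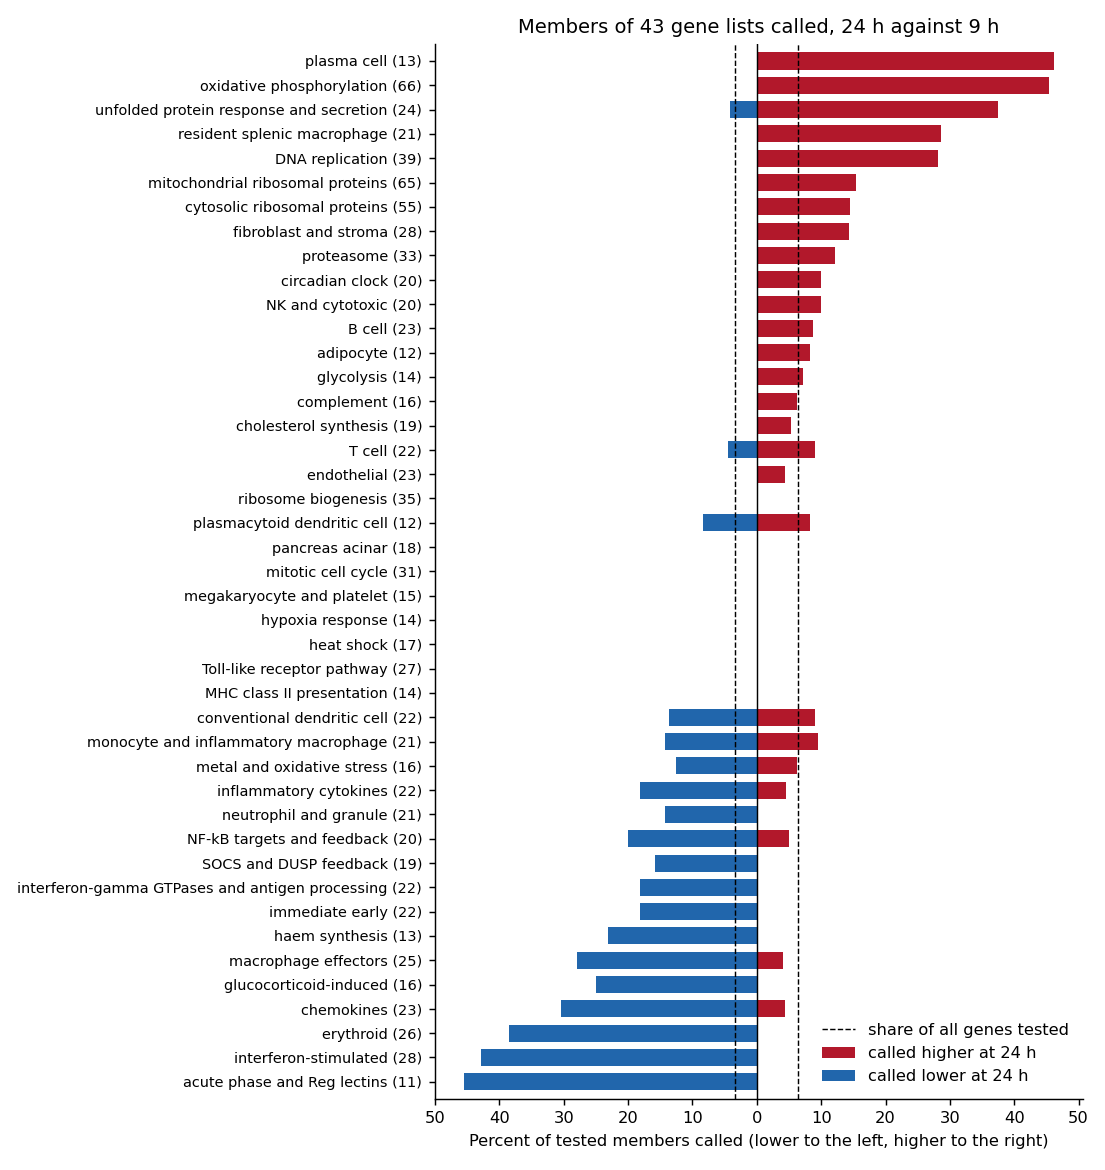
Percent of the tested members of each of 43 gene lists called higher (red, to the right) and lower (blue, to the left) at 24 h against 9 h, with the number tested in brackets and dashed lines at the 6.39% and 3.33% of all genes. Plasma cell and oxidative phosphorylation genes have the highest shares of rises, and acute phase, interferon-stimulated and erythroid genes the highest shares of falls.

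Clock genes were set apart because 9 h and 24 h fall at different hours of the day for mice injected at the same hour, and the sources used here do not give the hour. Of 20 tested, 2 rose (10%, near the 6.39% of all genes), with a median of -0.07. Dbp, an output of the clock that binds D-boxes, had -1.92, -2.20, -2.11 and -2.52 at 9 h and -1.01, -0.75, -0.79 and -1.60 at 24 h, a rise of 1.15 ± 0.20 (adjusted p = 0.000212), and Per3, a period gene, had -2.35, -1.94, -2.50 and -2.60 and then -1.26, -0.88, -1.26 and -1.99, a rise of 1.00 ± 0.24 (adjusted p = 0.0064). The groups of Dbp did not overlap, while those of Per3 did, at 9 h replicate 2 and 24 h replicate 4. Untreated spleens lay between, at -1.73 ± 0.19 and -1.80 ± 0.20. The core genes Arntl (-0.24 ± 0.22), Clock (0.18 ± 0.11), Per1 (-0.42 ± 0.34), Per2 (-0.04 ± 0.17), Cry1 (0.04 ± 0.22), Cry2 (0.27 ± 0.21), Nr1d1 (-0.16 ± 0.11) and Nr1d2 (0.27 ± 0.18) were not called, nor were Npas2, Tef, Hlf, Nfil3, Bhlhe40, Bhlhe41, Rora, Cipc, Csnk1d and Csnk1e, whose differences ran from -0.33 (Bhlhe41) to 0.30 (Hlf). Both rises were called whichever array was left out, and the part of the hour of day in them was not tested. The promoter of Per3 (GRCm38.p6 chr4:151044786-151044900, minus strand, bases -235 to -121) holds 2 D-boxes, TTATGNAA, in capitals:
Per3: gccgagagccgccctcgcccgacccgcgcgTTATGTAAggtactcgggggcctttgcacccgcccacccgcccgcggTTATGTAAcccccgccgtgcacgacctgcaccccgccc
A D-box was found in 2.53% of all promoters and in 2 of 17 clock promoters (11.8%), and the E-box CACGTG, which the clock's activators bind, in 9.37% and in 5 of 17 (29.4%). Of the promoters of genes that rose, 2.05% held a D-box and 9.21% an E-box, near the shares of all.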

How the data were processed

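Spleen RNA, extracted with TRIzol, was labelled with Cy5 and hybridised with a Cy3-labelled mouse reference RNA on 2-colour arrays, per the labels' protocols. The authors deposited a log2 ratio per feature and array, already normalized; the sources used here do not give image analysis, spot filter and normalization. Arrays were centred near 0 as deposited and used without further normalization. Of 30601 features, 23485 had 1 gene symbol in the platform annotation, 179 several and 6937 none; 29 symbols were updated through the Entrez identifier, and features were averaged per symbol.

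One limma model (version 3.58.1, R 4.3.3) with a coefficient per group was fitted to all 42 arrays, with empirical Bayes moderation, a 2-sided contrast and Benjamini-Hochberg adjustment over all genes tested. Called genes had an adjusted p below 0.05. Differences carry the standard error from the model after ±, and group means the SD. Replicates are independent by the series' design. On simulated data in this layout, 77 genes were changed by 0.5 on the log2 scale, 60 by 1 and 63 by 2. The fit recovered 26%, 76.7% and 100% of them, with 8 false among 137 calls. Fewer genes were changed there than were called in the data, and noise was drawn independently for each gene. The recovered shares therefore need not hold for these data.

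The text names the 14 greatest rises and 14 greatest falls among called genes measured on all 8 arrays, without overlap between the groups and with all features of a gene going one way, then up to 4 called members of each of 43 lists, a panel of TLR9 response genes and all measured clock genes. Other genes named are list members chosen after their values were seen. The comparison, the members and the lists were chosen with earlier results of these data known. Promoters are those of RefSeq (GRCm38.p6), 250 bases before to 50 after a gene's start, for 11958 tested genes. Arrays with database numbers no more than 12 apart were taken as 1 run (10 runs, 4 of them with 1 array). Alternatives covered blocks for replicate number and run, normalization, filters, thresholds, single features, array weights, the 8 arrays alone and leaving out each array. The counts by leave-out of genes called at 3 h or 72 h were added after seeing the data.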

Additional observations from a re-analysis of the deposited data

Results flagged for a closer look

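In 398 groups of 4 values (the named genes and the list means, at 9 h and at 24 h), 24 held an array whose gap to its nearest neighbour was too large a share of the group's range by Dixon's 95% limit, which chance passes in about 1 of 20 groups. Of the 24, 11 were on 24 h replicate 4 and 5 on 9 h replicate 4.

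On 24 h replicate 4, low values stood out for Socs1 (0.76, others 1.22 to 1.29), Nfkbia (-0.40, others 0.05 to 0.12), Mrps21 (0.067, others 0.60 to 0.70), Chil3 (1.11, the others at 2.35 and above), Cadm1 (0.85, others 1.30 to 1.39), Gzma (7.03, others 8.01 to 8.19) and Bhlhe40 (-2.20, others -1.83 to -1.79). The means of 4 lists were also low there: NF-kB targets at 0.50 (others 0.91 to 0.96), proteasome genes at 0.018 (others 0.29 to 0.35), plasma cell genes at -0.23 (others 0.15 to 0.20) and fibroblast and stroma genes at -0.0541 (others 0.28 to 0.31). On 9 h replicate 4, Cmbl (-0.21, others 1.17 to 1.29), Ccl12 (2.08, others 4.45 to 4.82), Igfbp5 (-1.16, others -0.04 to 0.14) and Gzmb (4.35, others 5.67 to 5.77) were low, and Naaa was high (-0.006, others -0.46 to -0.41).

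The other 8 were spread over 5 arrays. Gch1 was high on 24 h replicate 2 (1.12, others -0.01 to 0.10), Ifit3 on 24 h replicate 1 (4.24, others 3.32 to 3.44), Rpl27 on 24 h replicate 3 (0.99, others 0.31 to 0.39), Mrpl42 on 9 h replicate 2 (0.10, others -0.75 to -0.74) and Cd3e on 9 h replicate 1 (0.90, others 0.56 to 0.58). Chil3 was low on 9 h replicate 2 (2.66, others 3.60 to 3.77), Lbp on 9 h replicate 1 (-0.94, others -0.02 to 0.06) and Nr1d2 on 24 h replicate 1 (-0.82, others -0.43 to -0.36).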

How the results depend on the processing

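The count of called genes, 1463 with limma, was 149 with the 8 arrays alone (147 shared with the 1463), 401 with the 8 arrays alone and the replicate number as a block (375 shared), 466 at an adjusted p below 0.01 and 216 with an added absolute log2 difference of at least 1. Leaving out 1 array gave 492 (without 24 h replicate 3) to 2386 (without 24 h replicate 4), and 1161 without 24 h replicate 1, which keeps arrays of a single run. With the run as a fixed block it was 1095 (975 shared), with the run as a random block 1471, and for single features 1910 of 23071. On these 8 arrays the replicate block thus raised the count, from 0 to 8 falls among erythroid genes and from 0 to 6 rises among DNA replication genes, while oxidative phosphorylation had 0 in both. Pairing by replicate number was not taken as given, since deviations from the group means correlated at 0.368, 0.0114, 0.193 and 0.424 for numbers 1 to 4: arrays 1 and 4 correlated best with their own number, and 9 h replicates 2 and 3 with 24 h replicates 3 (0.245) and 2 (0.251). Other normalizations, filters, moderation and array weights gave 1447 to 1621. At 72 h against untreated, leaving out 1 array gave 1130 to 2940 calls, with 1130 without 72 h replicate 3, 1225 without replicate 2 and 2940 without replicate 4. At 3 h it gave 1431 to 1716. Of 120 called genes that are named, 39 were called under every alternative in which they were tested, 19 for all but Mrc1 and Il12b, which had 15. In every fit that left out an array and tested them, 8 for all but Mrc1 and Il12b, which had 5, 66 were called. With the 8 arrays alone 79 lost the call. None of the 120 changed sign, and 13 genes not called did. Quantile normalization moved the share of rises among calls from 65.8% to 56.9%. With 4 arrays a group, small differences can be missed. In the simulation, which changed fewer genes than were called here, 26% of changes of 0.5 on the log2 scale were recovered. The share missed in these data is not known. Raw intensities and spot quality were not used here, so signal over background is unknown.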
